A study of Mus musculus with 4 samples.

Results

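The mouse genes numbered Zfp500 to Zfp999 encode zinc finger proteins, and many of them carry a KRAB box. They were taken from a table of 20296 gene IDs by their symbol and by a mean of 10 or more normalized counts over all libraries. The table lists 201 such symbols, of which 188 met this minimum and 13 did not. The mean is the only measured value in the rule. Just inside the minimum lay Zfp579, with a mean of 11.2, and just outside it Zfp853, with a mean of 8.65, both in the authors' deposited table. The 188 genes lie on 18 chromosomes, with 49 on chromosome 7, 25 on chromosome 17 and 21 on chromosome 4, and together hold 1.03% of the summed means.

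The study compared epiblast-like stem cells (EpiLSC), which resemble the epiblast shortly after implantation, with naive cells. The EpiLSC were collected on day 3 in N2B27 medium with 12 ng/ml bFGF and 20 ng/ml activin A. They were set against the naive embryonic stem cells (nESC) from which they had been derived, held in 2i/LIF. Each state had 2 RNA-seq libraries, 1 from the mouse line R1 and 1 from E14TG2a. The spread within a state therefore includes the difference between the lines, and effects of the medium cannot be told apart from those of the state.

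KRAB zinc finger proteins bind DNA through arrays of C2H2 fingers and recruit the corepressor TRIM28, which brings in the histone methyltransferase SETDB1 and heterochromatin proteins. In embryonic stem cells this system is best known for silencing endogenous retroviruses and for protecting imprinted regions from losing methylation. The genes arise by tandem duplication, so neighbours in a cluster are often close copies, and members without a KRAB box have roles of many other kinds.

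The table holds 1 comparison of the 2 states and no column per sample, so levels of single libraries were not analysed here. Its header does not give the direction of the comparison. Positive log2 fold changes were taken as higher in EpiLSC because all 4 epiblast-like markers (Fgf5, Otx2, Dnmt3b and Pou3f1) had one sign and all 6 naive markers (Zfp42, Klf4, Esrrb, Tfcp2l1, Nanog and Prdm14) the other. A gene was counted as risen or fallen in EpiLSC when its Benjamini-Hochberg adjusted p over all 16361 tested genes was under 0.05 in the authors' DESeq2 Wald test. Implied levels per state, in normalized counts, follow from a gene's mean and fold change together and have no SD. In RNA from bulk cultures, fewer cells with a transcript and less transcript per cell cannot be told apart. Of the 2 markers listed for both states, Pou5f1 did not pass (-0.19, SE 0.76) and Sox2 fell (-3.35, SE 0.64) according to the authors' deposited table. Sox2 had implied levels of 899 in EpiLSC and 9169 in nESC. Of markers of other cell types, the feeder list had 2 rises and 1 fall among 7 genes, with summed implied levels of 3774 in EpiLSC and 42038 in nESC, of which Fn1 alone made 3353 in EpiLSC and 41938 in nESC. The 2 that rose were Thy1 (141 in EpiLSC and 5.83 in nESC) and Mmp2 (205 in EpiLSC and 12.4 in nESC). The defining collagen gene Col1a1 had implied levels of 9.04 in EpiLSC and 3.09 in nESC and did not pass. The primitive endoderm list had 1 rise among 5 genes (summed levels 154 in EpiLSC and 33.1 in nESC). Dab2, the gene that rose, made 121 of this sum in EpiLSC. The trophectoderm list had 1 rise and 1 fall among 5 genes (2095 in EpiLSC and 436 in nESC). Most of these sums came from Krt18 (1269 in EpiLSC and 43.4 in nESC), which rose, and Krt8 (821 and 306), which did not pass. Cdx2 went the other way and fell (-5.55, SE 1.42) according to the authors' deposited table. For the 5 genes of the 2-cell-like list no call was made, with summed levels of 222 in EpiLSC and 329 in nESC and 0 genes at an unadjusted p under 0.05. In these lists Col3a1, Gata6, Sox7, Gata3, Elf5 and Usp17la had no adjusted p and could not be called. The part of cells of these other types in the results was not tested.

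All 188 genes had an adjusted p. Most of them did not pass the test, and those that did fell more often than they rose. Of the 188 genes 6 rose and 16 fell in EpiLSC, or 3.19% and 8.51%, where 7.67% of all tested genes rose and 6.23% fell (13.9% in either direction), by the DESeq2 Wald test with adjusted p under 0.05. Among the 14673 tested genes that also met the minimum mean of 10, the shares were 8.29% and 6.81%. The share of the 188 that rose lay below the background and the share that fell slightly above it, and neither difference was tested. The median log2 fold change according to the authors' deposited table was -0.20 over the 188 genes and 0.02 over all tested genes, and 110 of the 188 (58.5%) were negative, as were 49.0% of all tested genes. The other 166 genes did not pass. For 83 of these the 95% interval of the fold change lay within a 4-fold change either way, while for the rest it reached past 4-fold. Standard errors ran from 0.61 to 1.56, and the smallest called change had a size of 2.02 on the log2 scale. Every implied level was above 3 normalized counts in both states. Among called genes the lowest were those of Zfp618 (8.45) and Zfp608 (13.5) in nESC, so these rises rest on low levels in that state. Tested against a change of 2-fold rather than of none, 2 of the 6 rises (Zfp608 and Zfp618) and 7 of the 16 falls (Zfp977, Zfp640, Zfp978, Zfp600, Zfp936, Zfp981 and Zfp986) still passed, and the calls of the others ended.

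**Figure D1:**
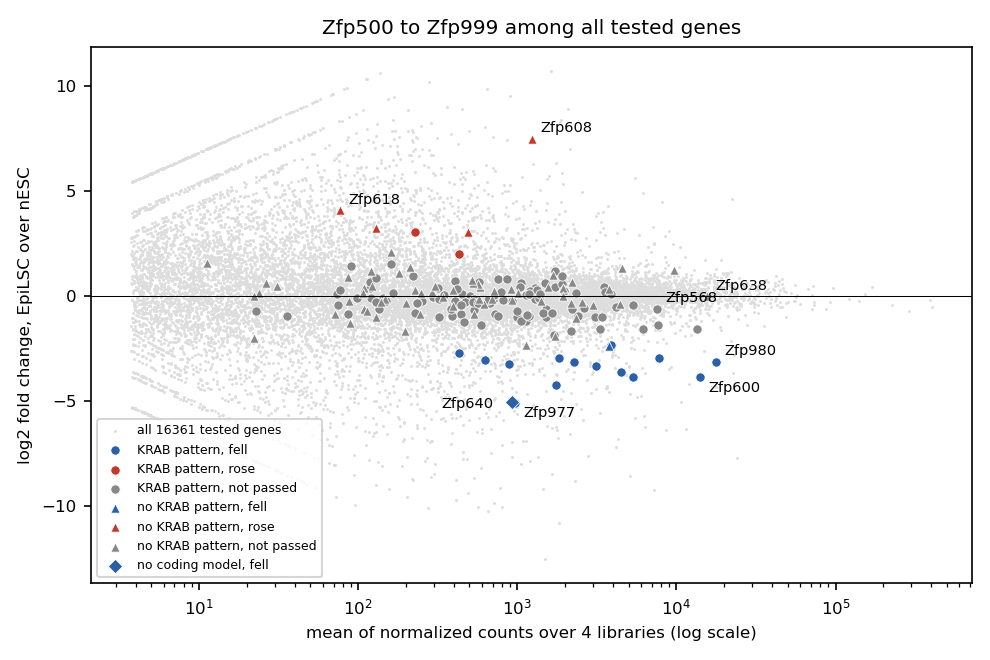
Log2 fold change of EpiLSC over nESC against the mean of normalized counts (log scale) according to the authors' deposited table, for all 16361 tested genes (grey dots) and the 188 genes Zfp500 to Zfp999 (larger symbols). Shape gives the KRAB pattern and colour the call. The 16 genes that fell include abundant ones such as Zfp980 and Zfp600, while Zfp608 stands alone at the top with a log2 change of 7.50.

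A KRAB box was found in most of the family. Translated coding sequences held the KRAB A box pattern in 121 genes and lacked it in 66, and Zfp640, annotated as a transcribed processed pseudogene, has no coding model. Proteins with the pattern had a median of 11 C2H2 fingers and those without it a median of 7, with up to 33 fingers in 1 protein. Of the 121 KRAB genes 2 rose (1.65%) and 14 fell (11.6%) in EpiLSC, with a median log2 fold change of -0.30. Of the 66 genes without the pattern 4 rose (6.06%) and 1 fell (1.52%), with a median of 0.16. A gene whose KRAB box departs from the pattern would be counted among these 66. The difference between both groups was not tested. Over all tested genes 7.67% rose and 6.23% fell. Outside the chromosome 4 cluster described next, 2 of 103 KRAB genes rose (1.94%) and 3 fell (2.91%), with a median of -0.20. Both of these shares lay below those of all tested genes. By number of fingers, medians were 0.03 for the 39 genes with up to 6 fingers, -0.22 for the 88 with 7 to 12 and -0.15 for the 60 with 13 or more, and Spearman's rho between finger number and log2 fold change was -0.05 over 187 genes that include close copies. Other zinc finger families gave 5 rises (3.14%) and 7 falls (4.4%) among 159 genes for Zfp1 to Zfp499 (DESeq2 Wald test). Among 27 Zscan and Zkscan genes 0 rose and 1 fell (3.7%) in the same test, and 0 were higher at an unadjusted p under 0.05. Outside the rule, 141 genes that met the minimum mean combine the KRAB pattern with fingers. They overlap Zfp1 to Zfp499, with Zfp459 for example. They also include symbols with a letter such as Zfp729a, and neighbours inside the described clusters such as Rex2 and Gm17067. Of the 141 genes 1 rose (0.709%) and 17 fell (12.1%), with a median of -0.36 according to the authors' deposited table.

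Most of the falls lay in 1 cluster. Genes whose starts lay at most 500 kb from the next formed 19 clusters of 3 or more, which held 115 of the 188 genes. Inside clusters 3 of the 115 genes rose and 15 fell, and 11 of these falls lay in the chromosome 4 cluster described below. Of the 73 genes outside clusters 3 rose (4.11%) and 1 fell (1.37%). Both of these shares lay below those of all tested genes, 7.67% and 6.23%, and the differences were not tested. The contrast in falls between genes inside and outside clusters thus rests mostly on 1 cluster. In 13 of the 19 clusters, with 52 genes, no gene passed the DESeq2 Wald test, and 0 were higher and 1 was lower at an unadjusted p under 0.05. Gene order and distances are those of GENCODE M21 on GRCm38, whereas the submitters' processing notes name the build mm9. Clusters are described only, since neighbours that are close copies can share reads and are not independent.

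**Figure D2:**
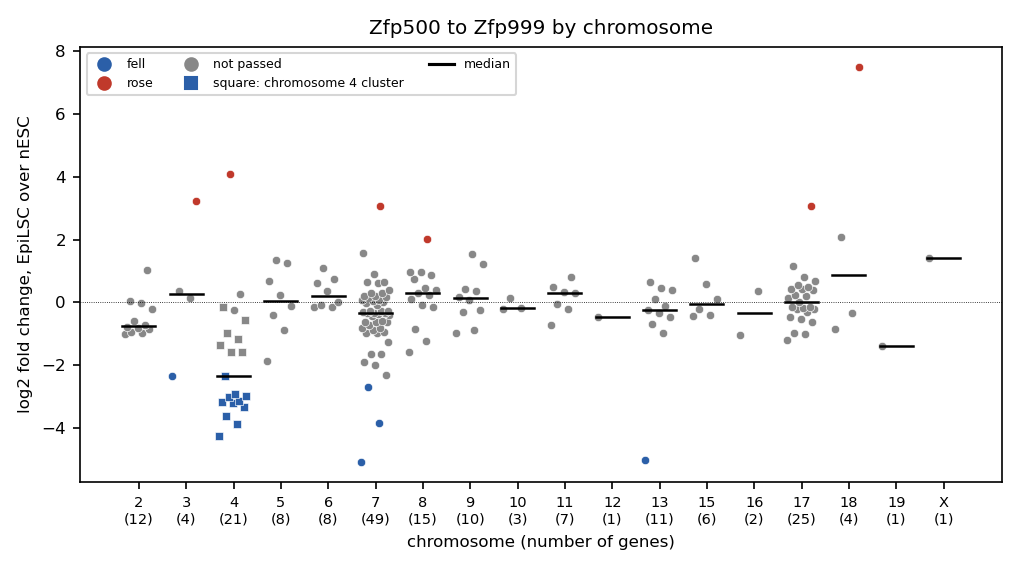
Log2 fold change of EpiLSC over nESC according to the authors' deposited table for each of the 188 genes, by chromosome, with the number of genes in brackets and the median as a black line. Squares mark the 18 genes of the chromosome 4 cluster, all below 0, of which 11 fell.

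The cluster on chromosome 4 from Zfp990 to Zfp933 held 11 of the 16 falls. Its 18 genes, all with a KRAB pattern, span 2312 kb, and all 18 had a negative log2 fold change according to the authors' deposited table, from -4.25 to -0.15 with a median of -2.95. Of the 18 genes 11 fell and 0 rose (DESeq2 Wald test), and at an unadjusted p under 0.05 13 were lower and 0 higher. The summed implied level of the cluster was 30788 normalized counts in EpiLSC, against 155769 in nESC, a log2 ratio of -2.34. The other 170 genes together had 180953 in EpiLSC and 205029 in nESC, a log2 ratio of -0.18. Without the cluster 6 genes rose (3.53%) and 5 fell (2.94%) among these 170, with a median of -0.11. Both shares lay below those of all tested genes, 7.67% and 6.23%, and the differences were not tested. The cluster thus held 32.6% of the family's summed means and most of its falls.

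Annotated promoters show how alike these copies are. Windows of 250 bases before to 50 after the start were at hand from RefSeq (GRCm38.p6) for 156 of the 188 genes and for 12 of the 18 in this cluster. The capitals mark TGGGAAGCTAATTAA, the longest word of 12 or more bases in the largest number of these 12 windows, chosen after the sequences were seen. Shown are 2 genes that fell (Zfp600 and Zfp987), 2 that carry the word but did not pass (Zfp979 and Zfp984) and 1 without it (Zfp933), each 5′ to 3′ on the strand of the gene. Their positions are Zfp600 chr4:146156577-146156876 (plus strand), Zfp987 chr4:146097062-146097361 (plus strand), Zfp979 chr4:147642459-147642758 (minus strand), Zfp984 chr4:147809739-147810038 (minus strand) and Zfp933 chr4:147848369-147848668 (minus strand).
Zfp600: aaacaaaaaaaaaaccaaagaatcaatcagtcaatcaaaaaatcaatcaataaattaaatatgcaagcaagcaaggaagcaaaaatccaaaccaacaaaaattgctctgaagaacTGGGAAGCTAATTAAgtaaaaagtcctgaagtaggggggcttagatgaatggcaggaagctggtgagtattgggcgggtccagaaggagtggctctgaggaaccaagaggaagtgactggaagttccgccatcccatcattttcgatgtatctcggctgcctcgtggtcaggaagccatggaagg
Zfp987: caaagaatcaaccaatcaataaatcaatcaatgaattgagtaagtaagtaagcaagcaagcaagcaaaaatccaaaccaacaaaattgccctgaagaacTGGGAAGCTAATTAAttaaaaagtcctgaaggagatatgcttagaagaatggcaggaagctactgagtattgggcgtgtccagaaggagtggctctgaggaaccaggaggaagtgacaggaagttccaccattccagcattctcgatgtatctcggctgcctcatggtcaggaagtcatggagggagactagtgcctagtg
Zfp979: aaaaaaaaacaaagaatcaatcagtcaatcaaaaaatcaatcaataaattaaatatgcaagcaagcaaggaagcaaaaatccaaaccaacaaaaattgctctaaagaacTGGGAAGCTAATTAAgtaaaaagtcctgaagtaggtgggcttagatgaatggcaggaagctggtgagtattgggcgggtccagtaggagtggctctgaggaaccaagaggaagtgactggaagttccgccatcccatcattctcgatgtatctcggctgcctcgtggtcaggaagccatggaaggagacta
Zfp984: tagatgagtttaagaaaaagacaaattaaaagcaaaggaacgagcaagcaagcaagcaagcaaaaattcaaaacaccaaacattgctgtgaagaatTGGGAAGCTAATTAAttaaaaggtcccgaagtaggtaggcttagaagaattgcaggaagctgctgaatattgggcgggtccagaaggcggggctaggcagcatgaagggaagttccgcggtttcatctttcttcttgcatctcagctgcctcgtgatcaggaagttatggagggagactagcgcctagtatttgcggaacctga
Zfp933: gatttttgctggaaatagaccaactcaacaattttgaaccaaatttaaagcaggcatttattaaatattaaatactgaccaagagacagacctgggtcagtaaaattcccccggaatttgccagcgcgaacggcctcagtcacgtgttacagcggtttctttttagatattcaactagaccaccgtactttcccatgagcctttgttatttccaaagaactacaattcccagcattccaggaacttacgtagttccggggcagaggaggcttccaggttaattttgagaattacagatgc

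The word was in 10 of the 12 windows, with its first base 164 to 106 bases before the start, and absent from those of Zfp933 and Zfp993. Of the 10 genes with it 8 fell and 2 did not pass, and these 8 were all the fallen genes of the cluster with a RefSeq window. Searched on both strands, it was in 12 of 32851 mouse promoter windows (0.0365%). The 2 windows outside the numbering were those of Rex2 and Gm13212, neighbours in the same cluster. Rex2 fell by 3.64 (SE 0.83), while Gm13212, at -1.45 (SE 0.74), did not pass according to the authors' deposited table. A shared word among copies is a description of their sequence, not a binding site.

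Zfp978 had the largest fall of the cluster, with implied levels of 175 normalized counts in EpiLSC and 3326 in nESC. Its log2 value was -4.25 (SE 0.86, adjusted p 1.91e-05) according to the authors' deposited table, and its protein has only 3 fingers. Zfp600, a 17-finger KRAB gene whose promoter is printed first, had implied levels of 1827 in EpiLSC, against 26415 in nESC. It fell by 3.85 (SE 0.83, adjusted p 7.46e-05) according to the authors' deposited table. Zfp980 had the highest mean of the 188 genes, 17749 normalized counts according to the authors' deposited table, and also the highest per kb of exon. Its implied levels were 3661 in EpiLSC and 31837 in nESC, and it fell by 3.12 (SE 0.82, adjusted p 0.00175) according to the authors' deposited table. Zfp980 and Zfp600 are among the 3 highest means of the family.

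The cluster held 8 further falls. Zfp981 had implied levels of 671 in EpiLSC and 8235 in nESC, and fell by 3.62 (SE 0.77) according to the authors' deposited table. Zfp986 (564 in EpiLSC and 5687 in nESC) fell by 3.33 (SE 0.79) and Zfp987 (1762 in EpiLSC and 13754 in nESC) by 2.96 (SE 0.80) according to the authors' deposited table. Along the chromosome Zfp980, Zfp986, Zfp987 and Zfp600 follow one another, and all 4 fell. Farther along, the authors' deposited table gave values of -3.21 (SE 0.76) for Zfp989, -3.16 (SE 0.89) for Zfp988, -3.02 (SE 0.71) for Zfp982 and -2.93 (SE 0.78) for Zfp534. The smallest of the falls was that of Zfp985, with implied levels of 1280 in EpiLSC and 6424 in nESC and a log2 value of -2.33 (SE 0.82, adjusted p 0.0346) according to the authors' deposited table.

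The 7 genes of the cluster that did not pass had adjusted p from 0.116 to 0.982 in the DESeq2 Wald test. Zfp990, the second most abundant per kb of exon, had implied levels of 6714 in EpiLSC and 20061 in nESC and a log2 value of -1.58 (SE 0.68) according to the authors' deposited table. Zfp979 (-1.59, SE 0.78) and Zfp992 (-1.36, SE 0.71) had similar values, and Zfp993 (-1.17), Zfp991 (-0.98) and Zfp984 (-0.57) smaller ones according to the authors' deposited table. Zfp933, at one end of the cluster, had implied levels of 504 in EpiLSC and 557 in nESC, with a 95% interval from -1.66 to 1.37. The genes that fell and those that did not lie interleaved.

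Close copies can exchange reads, and the sources used here do not say how the authors treated reads that map to several genes. Of the 50-base words of a gene's exons in GENCODE, the share that also occurs in the exons of another gene had a median of 68.0% in the cluster (range 1.05% to 89.0%) and of 0.599% in the other 170 genes. It was over 50% in 11 of the 18, among them Zfp987 (89.0%), Zfp986 (86.4%) and Zfp600 (81.2%). The values of such genes are uncertain as single genes. Of all 16 genes that fell, 6 were among the 147 genes that share under 20% of their words. Over all tested genes 6.23% fell. In this cluster the falls among the 147 are Zfp982, with implied levels of 137 in EpiLSC and 1116 in nESC and 11.9% shared, and Zfp985, with 15.9%. Zfp991 and Zfp993 share 82.2% and 86.8% and did not pass. The part of shared reads in the falls was not tested.

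The 10 tested genes of other names inside the cluster had 3 falls (30.0%) and 0 rises in the DESeq2 Wald test. Over all tested genes 6.23% fell and 7.67% rose. At an unadjusted p under 0.05, 4 of the 10 were lower and 0 higher. The zinc finger gene Rex2 had implied levels of 939 in EpiLSC and 11683 in nESC. Gm21411 fell by 2.86 (SE 0.65), and the long noncoding RNA gene Gm16211 by 4.84 (SE 0.68), with implied levels of 49.2 in EpiLSC and 1404 in nESC according to the authors' deposited table. The antisense gene 4933438K21Rik (0.04, SE 0.94) and Gm20707 (0.08, SE 0.69) had values near 0 according to the authors' deposited table.

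**Figure D3:**
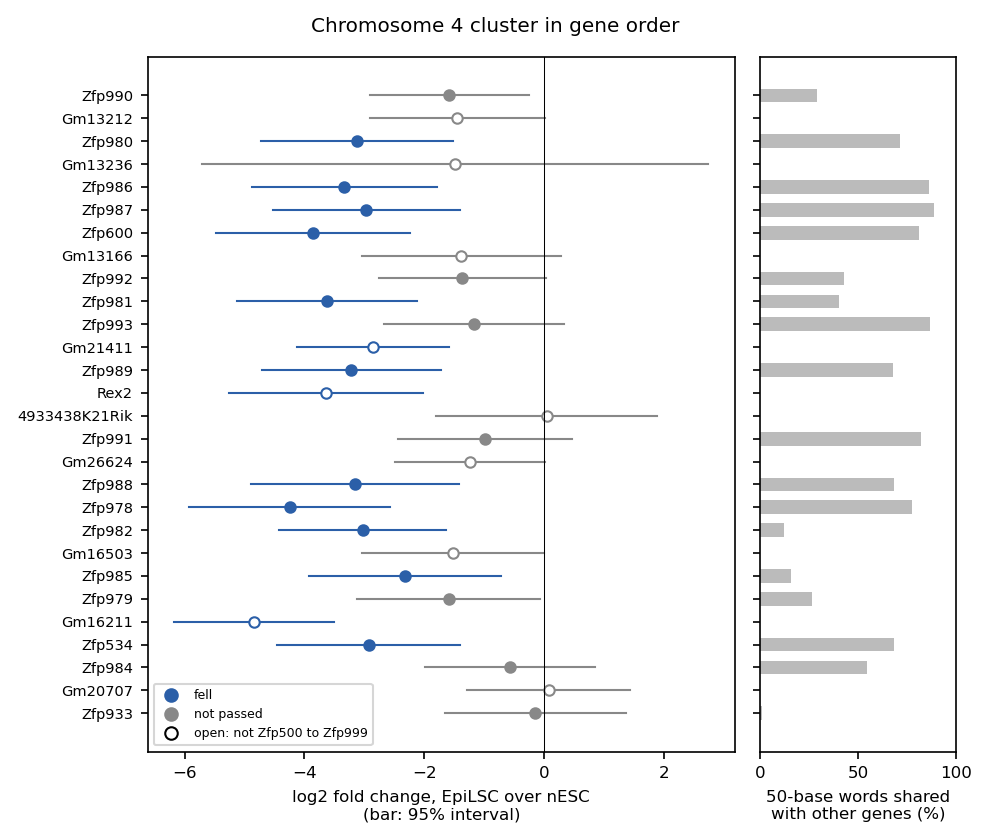
Left, log2 fold change of EpiLSC over nESC with its 95% interval for the tested genes of the chromosome 4 cluster, in the order of GENCODE M21, from the authors' deposited table. Filled points are Zfp500 to Zfp999 and open ones other genes. Right, percent of each Zfp gene's 50-base words that occur in other genes (drawn for filled points only): the 11 filled blue points, the falls, range from 11.9% to 89.0% shared words.

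On chromosome 7 the cluster from Zfp977 to Zfp819 held 3 falls among 8 KRAB genes, where 6.23% of all tested genes fell. Zfp977 had the largest fall of all 188 genes, with implied levels of 55.8 normalized counts in EpiLSC and 1883 in nESC and a log2 value of -5.08 (SE 0.80, adjusted p 1.21e-08) according to the authors' deposited table. Zfp936, the seventh most abundant gene per kb of exon, had implied levels of 695 in EpiLSC and 9902 in nESC. It fell by 3.83 (SE 0.80, adjusted p 3.9e-05) according to the authors' deposited table. Zfp819, known for a link to the silencing of transposable elements, had implied levels of 115 in EpiLSC and 741 in nESC. Its log2 value was -2.69 (SE 0.69, adjusted p 0.00123) according to the authors' deposited table. These falls were in genes that share few words with others: 8.47% for Zfp977, 15.6% for Zfp936 and 0.518% for Zfp819. The other 5 did not pass, namely Zfp975 (-1.65), Zfp976 (-0.95), Zfp715 (-0.80), Zfp658 (-0.07) and Zfp719 (0.61) according to the authors' deposited table.

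Zfp977 and Zfp936, which fell, and Zfp976, which did not pass, are shown to compare their promoters, and the capitals mark CATCAGTGCACTCTCACCCTA, chosen by the same rule after the sequences were seen. The windows, from RefSeq (GRCm38.p6), are Zfp977 chr7:42592496-42592795 (minus strand), Zfp936 chr7:43177340-43177639 (plus strand) and Zfp976 chr7:42642555-42642854 (minus strand).
Zfp977: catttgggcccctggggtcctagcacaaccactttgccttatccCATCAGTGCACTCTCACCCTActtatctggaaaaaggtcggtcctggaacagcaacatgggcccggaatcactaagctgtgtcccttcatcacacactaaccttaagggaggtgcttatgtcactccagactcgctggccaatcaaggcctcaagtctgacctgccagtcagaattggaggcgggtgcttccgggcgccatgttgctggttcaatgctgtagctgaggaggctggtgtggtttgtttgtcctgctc
Zfp936: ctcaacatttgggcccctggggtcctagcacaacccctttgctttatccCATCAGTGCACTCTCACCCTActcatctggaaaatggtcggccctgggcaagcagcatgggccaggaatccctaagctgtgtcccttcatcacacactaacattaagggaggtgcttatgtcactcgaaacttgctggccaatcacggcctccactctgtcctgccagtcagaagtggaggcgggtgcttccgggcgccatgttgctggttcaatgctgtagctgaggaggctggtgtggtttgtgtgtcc
Zfp976: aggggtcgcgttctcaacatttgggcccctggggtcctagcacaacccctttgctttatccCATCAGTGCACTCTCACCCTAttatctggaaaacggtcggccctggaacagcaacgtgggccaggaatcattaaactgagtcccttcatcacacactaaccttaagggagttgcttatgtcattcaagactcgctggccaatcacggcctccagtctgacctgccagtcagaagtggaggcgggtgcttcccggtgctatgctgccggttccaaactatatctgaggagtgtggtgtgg

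All 8 genes have a RefSeq window, and the word was in 4 of them, those of Zfp936, Zfp975, Zfp976 and Zfp977, of which 2 fell. Its first base lay 250 to 189 bases before the start. On both strands it was in 5 of 32851 windows (0.0152%), and the other one belonged to the long noncoding RNA gene EU599041 of the same cluster, which fell by 2.19 (SE 0.78) according to the authors' deposited table. The promoter of Zfp819 lacks the word, although the gene fell.

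Other genes of this chromosome 7 stretch also fell. Of 10 tested genes of other names 5 fell and 0 rose (DESeq2 Wald test; at an unadjusted p under 0.05 7 were lower and 1 higher). Of these, the zinc finger or KRAB genes Gm17067 (-1.93, SE 0.69) and Gm2381 (-3.51, SE 0.79) fell according to the authors' deposited table. Gm2381 had implied levels of 746 in EpiLSC and 8508 in nESC. Gm17768 (-3.20, SE 0.72) and Gm10351 (-3.07, SE 0.81) fell as well according to the authors' deposited table. These 5 genes lie between Zfp975 and Zfp715, in the stretch that also holds Zfp936.

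**Figure D4:**
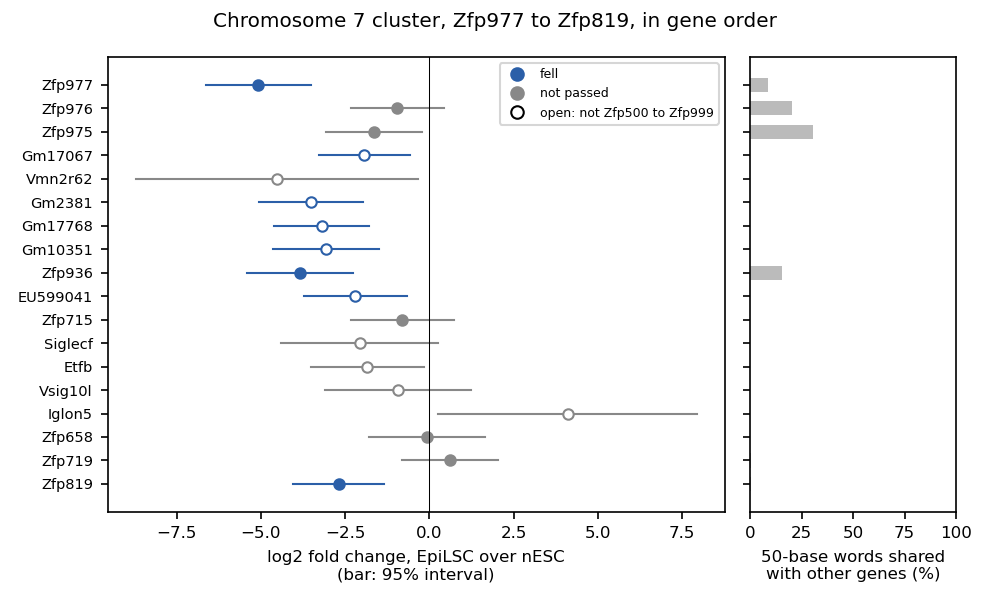
Log2 fold change of EpiLSC over nESC with its 95% interval for tested genes of the chromosome 7 cluster in the order of GENCODE M21, from the authors' deposited table, with the percent of shared 50-base words of the filled points at the right. Falls (blue) comprise 3 filled and 5 open points.

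The last 2 falls were single genes. Zfp640 on chromosome 13, the pseudogene, had implied levels of 55.0 normalized counts in EpiLSC and 1796 in nESC, a log2 change of -5.03 (SE 0.77, adjusted p 4.19e-09) according to the authors' deposited table. It shares 50.8% of its words with other genes and overlaps a receptor pseudogene on the same strand. The 6 other genes of its cluster, from Zfp595 (-0.46) to Zfp748 (0.64) according to the authors' deposited table, did not pass. Of 19 tested genes of other names between them 1 fell (5.26%, beside 6.23% of all tested genes), Zfp459 (-2.56 according to the authors' deposited table). Zfp704 on chromosome 3, which has no KRAB pattern, had implied levels of 1230 in EpiLSC and 6292 in nESC. It fell by 2.36 (SE 0.62, adjusted p 0.00207) according to the authors' deposited table.

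The 6 genes that rose lie on 6 chromosomes, and 4 of them have no KRAB pattern. Zfp608, a paralogue of the neural progenitor gene Zfp609, had implied levels of 2447 normalized counts in EpiLSC and 13.5 in nESC. Its log2 fold change of 7.50 (SE 0.71, adjusted p 1.05e-22) was the largest of the family in size according to the authors' deposited table. Zfp609 itself had implied levels of 1788 in EpiLSC and 1332 in nESC and did not pass (0.42, SE 0.81 according to the authors' deposited table). The paralogues thus had unlike values, although the difference between them was not tested.

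Zfp618, whose protein is known as a partner of UHRF2 at hydroxymethylated DNA, had implied levels of 144 in EpiLSC and 8.45 in nESC, a rise of 4.09 (SE 0.88, adjusted p 7.67e-05) according to the authors' deposited table. It lies on chromosome 4 but outside the cluster. Zfp697 had implied levels of 235 in EpiLSC and 25.0 in nESC and rose by 3.23 (SE 0.79, adjusted p 0.000756) according to the authors' deposited table. Its span holds Hsd3b genes on the other strand. Zfp629 on chromosome 7 had implied levels of 874 in EpiLSC and 104 in nESC, a rise of 3.07 (SE 0.72, adjusted p 0.00038) according to the authors' deposited table. The other 9 genes of its cluster, from Zfp553 (-1.89) to Zfp768 (0.91) according to the authors' deposited table, did not pass.

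Among KRAB genes Zfp677 and Zfp869 rose. Zfp677 opens a cluster of 14 genes on chromosome 17 and had implied levels of 405 in EpiLSC and 48.0 in nESC, a rise of 3.08 (SE 0.78, adjusted p 0.0012) according to the authors' deposited table. The 13 others lay between Zfp758 (-1.20) and Zfp946 (1.18) according to the authors' deposited table and did not pass, with a cluster median of 0.00. Zfp869 on chromosome 8 had implied levels of 686 in EpiLSC and 169 in nESC, a rise of 2.02 (SE 0.66, adjusted p 0.0194) according to the authors' deposited table. The 5 others of its cluster lay between -0.09 and 0.97 according to the authors' deposited table and did not pass. Of the 22 called genes 5 overlap another gene on the same strand and 11 one on the opposite strand. The libraries were strand-specific per the labels, but the sources used here do not give the strand setting of the counting.

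Both clusters on chromosome 2 lay below 0. Zfp968, Zfp965, Zfp969 and Zfp966 share 90.0% to 100% of their words and lay between -0.83 and -0.60 according to the authors' deposited table. The 4 genes from Zfp970 to Zfp931 share 23.3% to 55.7% of their words and had a median of -0.89. All 8 genes were below 0, none passed the DESeq2 Wald test, and 0 had an unadjusted p under 0.05.

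Genes with known roles in silencing mostly did not pass. Zfp809, which in mouse recognises the primer binding site of a leukaemia retrovirus and silences it in embryonic stem cells, had implied levels of 803 normalized counts in EpiLSC and 1485 in nESC (log2 fold change -0.89, SE 0.65 according to the authors' deposited table). Zfp568, which represses a placental transcript of Igf2, had 6018 in EpiLSC and 9053 in nESC (-0.59, SE 0.61 according to the authors' deposited table). Zfp932, a KRAB repressor of endogenous retroviruses, had 1245 in EpiLSC and 1347 in nESC (-0.11, SE 0.75 according to the authors' deposited table). None of these differences exceeded its error by enough to pass, and their lower 95% bounds were -2.16, -1.78 and -1.58. Zfp961 had implied levels of 1663 in EpiLSC and 4916 in nESC and did not pass (-1.56, adjusted p 0.152, DESeq2 Wald test according to the authors' deposited table). Zfp638, the family's second highest mean, whose human orthologue silences unintegrated retroviral DNA, had 15623 in EpiLSC and 15449 in nESC (0.02, SE 0.72 according to the authors' deposited table). Zfp644, whose human orthologue is a cofactor of the G9a methyltransferase, had 13661 in EpiLSC and 5738 in nESC and did not pass (1.25, SE 0.68, adjusted p 0.28 according to the authors' deposited table).

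Several further genes with known functions did not pass. Zfp706, known as a gene whose loss stabilises the naive state, had 3817 in EpiLSC and 4982 in nESC (-0.38, SE 0.76 according to the authors' deposited table). Zfp521, which promotes the entry of mouse embryonic stem cells into the neural lineage, had implied levels of 259 in EpiLSC and 60.5 in nESC. Its value of 2.10 (SE 0.82, adjusted p 0.0708) according to the authors' deposited table missed the threshold. Zfp536, an inhibitor of neural differentiation, was near the low end with 8.79 in EpiLSC and 35.2 in nESC, and did not pass (adjusted p 0.275, DESeq2 Wald test). Zfp598, the ubiquitin ligase of collided ribosomes, Zfp622, Zfp830, Zfp592, Zfp687 and Zfp532 lay between -0.37 and 0.15 according to the authors' deposited table. Zfp746, a repressor of the Pgc-1alpha gene, stood at 0.76 and the X-linked Zfp711 at 1.40 according to the authors' deposited table, and neither passed. The nearest misses were Zfp553, Zfp521, Zfp951 and Zfp710, with adjusted p from 0.0619 to 0.0852 in the DESeq2 Wald test.

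A list of silencing genes was counted in the same way. It holds Trim28, Setdb1 and heterochromatin protein genes, and also genes of other silencing complexes and of DNA methylation. Of 40 listed names 39 were in the table and tested, since Tasor is the other name of Fam208a, and 3 rose and 1 fell, with a median log2 fold change of -0.04. These are 7.69% and 2.56% of the list, beside 7.67% and 6.23% of all tested genes. Trim28, the corepressor itself, had implied levels of 10184 normalized counts in EpiLSC and 17844 in nESC (-0.81, SE 0.78) and did not pass according to the authors' deposited table. Setdb1 had 4099 in EpiLSC and 8441 in nESC (-1.04, SE 0.67), and did not pass either according to the authors' deposited table. The heterochromatin protein genes Cbx1, Cbx3 and Cbx5 lay between 0.59 and 0.71 according to the authors' deposited table and did not pass. The de novo methyltransferase genes Dnmt3b (4.63, SE 0.63) and Dnmt3a (2.92, SE 0.63) rose and their cofactor gene Dnmt3l (-2.93, SE 0.71) fell according to the authors' deposited table. Dnmt3b was also among the markers that set the direction of the comparison, so its sign is no separate result. Pphln1, which encodes a subunit of the HUSH silencing complex, had implied levels of 7480 in EpiLSC and 940 in nESC, a rise of 2.99 (SE 0.63, adjusted p 4.25e-05) according to the authors' deposited table. Its HUSH partner genes Mphosph8 (0.60) and Fam208a (-1.41) did not pass according to the authors' deposited table. Neither Trim28 nor Setdb1 was thus called beside the falls on chromosome 4, and their 95% intervals ran from -2.34 to 0.73 and from -2.35 to 0.26.

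**Figure D5:**
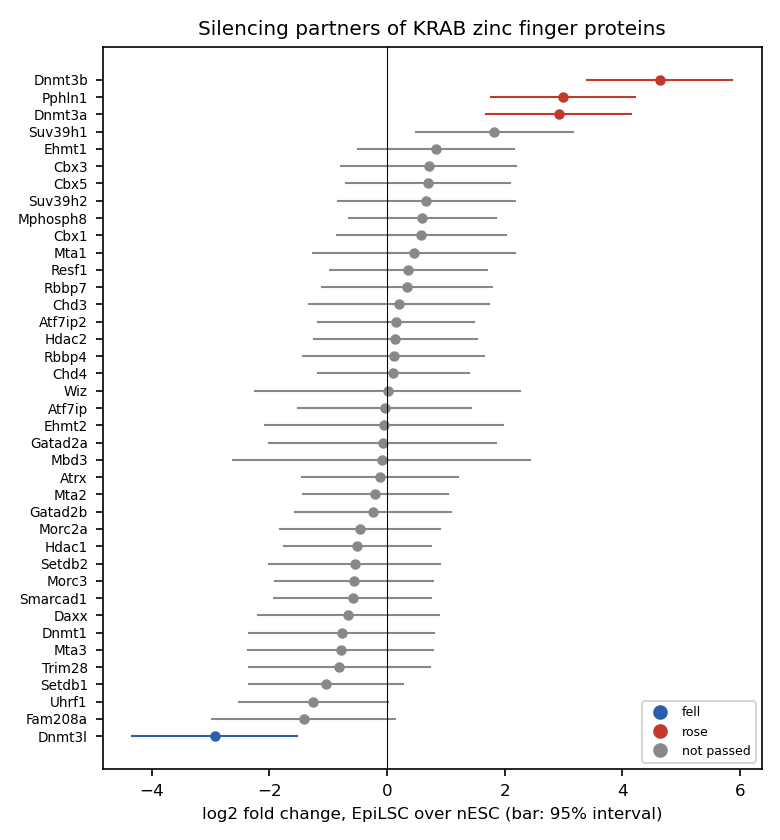
Log2 fold change of EpiLSC over nESC with its 95% interval for the 39 listed silencing genes, sorted by value, from the authors' deposited table. Dnmt3b, Pphln1 and Dnmt3a (red) rose and Dnmt3l (blue) fell, and the other 35 (grey) did not pass.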

How the data were processed

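Ribosome-depleted, strand-specific RNA-seq libraries were made from total RNA of EpiLSC and nESC, 2 per state, per the labels' protocols. The authors used TopHat2, HTSeq, DESeq2 1.8.2 and build mm9, per the submitters' processing notes. The sources used here do not give the annotation, strand setting, treatment of reads with several matches, or any shrinkage of folds. The authors deposited 1 comparison table. Its first measure, a mean of normalized counts, is a signal scaled by the authors. The deposited log2 fold change and standard error are the authors' model estimates, and the deposited Wald score equalled their ratio (largest gap 5.9e-14). The deposited p-value and adjusted p are the authors', the latter a Benjamini-Hochberg value over 16361 genes (largest gap 2.3e-15), and 3935 genes with low means have none. Depth per sample is unknown, and the means sum to 27888553.

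Gene names matched 20167 of 20296 IDs in GENCODE M21, and 129 had none. With no values per sample, no model was refitted, and the alternative test against a 2-fold change used the deposited estimates and standard errors. With m the mean and L the log2 fold change, the implied nESC level is 2m/(1 + 2 to the power L) and the EpiLSC level is what is left of 2m, which assumes equal weights of the libraries. KRAB and C2H2 patterns were searched in translated GENCODE M21 coding sequences, where RefSeq proteins had been planned. The code for the Wald test and its adjustment was tested on simulated data. Python 3.11.15, pandas 2.3.3, numpy 2.4.6, scipy 1.17.1, Biopython 1.88 and matplotlib 3.10.9 were used.

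The genes and lists were chosen with earlier results of these data known. Named genes were up to 15 called ones in each direction by size, and Zfp989, Zfp988, Zfp982, Zfp534 and other members of the described clusters. The 8 of highest mean, those at the minimum mean, a list of genes with known roles, and called silencing genes were named too. Nearest misses, neighbours inside clusters, Zfp459 and promoter words were chosen after their values or sequences were seen.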

Additional observations from a re-analysis of the deposited data

How the results depend on the processing

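Tested against a 2-fold change instead of none, 2 of the 188 genes rose and 7 fell. In this test 0 KRAB genes rose and 6 fell, and 0 genes in clusters rose and 7 fell. Of the listed silencing genes 0 fell, and of the other zinc finger families 2 genes rose and 3 fell. For these 0 counts, by the same Wald test, 1 KRAB gene, 2 genes in clusters and 1 silencing gene had an unadjusted p under 0.05. Zfp600, Zfp608, Zfp618, Zfp640, Zfp936, Zfp977, Zfp978, Zfp981 and Zfp986 passed this test. At an adjusted p under 0.01, 1 KRAB gene rose. In alternatives chosen after seeing the data, 6 of 147 genes with under 20% shared words fell. Without the chromosome 4 cluster 5 of 170 fell (2.94%). Both counts of falls thus moved from the 16 of all 188 genes. Over all tested genes 6.23% fell, and the differences from this share were not tested. Of 33 single genes 14 lost their call against a 2-fold change and 19 stayed on their side. These 19 include the 7 genes of the chromosome 4 cluster that had no call to lose. The genes that kept a call were the Zfp genes just named with Dnmt3a, Dnmt3b and Pphln1. All 33 stayed on their side with no filter on low means and with folds centred on the median of tested genes. So did the 32 with a mean of 100 or more, and no direction reversed in any alternative.

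Leaving out single libraries was not run for want of values per sample. No paired analysis was possible because the table has no column per sample, although both lines were sampled in each state. No change under 1.68 on the log2 scale was called for any gene. Depth per library is unknown. Genes sharing most of their words with copies are uncertain as single genes.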

Other observations

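Of the 13 genes of this numbering below the minimum mean, 6 have no adjusted p and 7 were tested, with 0 rises and 0 falls in the authors' DESeq2 Wald test and 2 genes, Zfp641 and Zfp831, higher at an unadjusted p under 0.05. Zfp641 had implied levels of 10.2 in EpiLSC and 0.455 in nESC, and Zfp831 of 7.67 in EpiLSC and 0.170 in nESC, so both rest on few reads in nESC.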
